A study of Mus musculus with 3 samples.

Results

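The glutamine tRNAs with the anticodons CTG and TTG were studied as all tRNA genes whose name begins with tRNA-Gln-CTG or tRNA-Gln-TTG, shortened here to Gln-CTG and Gln-TTG. These are 19 of the 446 tRNA genes in the deposited count table and 2 of its 56 isoacceptors, the groups of genes that share an anticodon. Of the 19, 12 are Gln-CTG and 7 are Gln-TTG, and all 19 had reads in all 3 libraries. The libraries hold gel-purified RNA of 15 to 50 nt from mouse epididymis, 2 from Alkbh3-/- mice and 1 from wild type mice. The names A and B for the Alkbh3-/- libraries follow column order, since neither column name matches a replicate number of the labels. No age, sex or strain is given in the labels. The wild type column name begins with B6 and the Alkbh3-/- names do not, so a shared genetic background is not known. Whether A and B are separate animals is not stated, so the p-values reflect only how far these samples spread, which may be technical.

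Glutamine tRNAs carry glutamine to the codons CAG and CAA. The isoacceptor Gln-CTG, named by its anticodon in DNA letters, pairs with CAG, and Gln-TTG pairs with CAA and, by wobble, also with CAG. Intact tRNA can be cut into fragments by nucleases such as angiogenin, which cleaves in the anticodon loop, and the epididymis, the duct in which sperm mature, is rich in such fragments. The wobble uridine of Gln-TTG is thiolated in mammals, as it is in the lysine and glutamate tRNAs with the same first anticodon base, whereas Gln-CTG has a cytidine there. ALKBH3 is a demethylase that takes methyl groups off adenosine and cytidine, also in tRNA.

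Reads of 5 RNA classes summed to 15411457 in library A, 21169908 in library B and 15107055 in the wild type library, and RPM means reads per 1000000 reads of that sum. Alkbh3 mRNA and markers of epididymal cells were not analysed here, so neither the genotype nor the tissue label was checked against the RNA. The median log2 fold change (Alkbh3-/- over wild type) of the 46 isoacceptors tested was -0.26 with this scaling and 0.01 with the tRNA gene counts as library sizes, so the scaling alone moves each isoacceptor by about that much.

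Both glutamine isoacceptors had lower RPM in the Alkbh3-/- libraries, and the decrease of Gln-TTG passed the test. tRNA-Gln-CTG had 205 RPM in library A and 225 RPM in library B, against 358 RPM in wild type. tRNA-Gln-TTG had 29.3 RPM in library A and 32.2 RPM in library B, against 48.1 RPM in wild type. For both, library A was lowest, library B next and wild type highest. The nearer Alkbh3-/- library lay 133 RPM below wild type for Gln-CTG, against 20.1 RPM between libraries A and B, and 15.95 RPM below it for Gln-TTG, against 2.84 RPM. In bulk tissue, fewer cells of a type and less RNA per cell cannot be told apart.

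Gln-TTG fell to 30.7 ± 2.01 RPM (SD, n = 2) in Alkbh3-/-, against 48.1 RPM in wild type (log2 fold change -0.64, SE 0.19, by the edgeR quasi-likelihood test adjusted p = 0.0086). Gln-CTG averaged 214.8 ± 14.2 RPM (SD, n = 2) in Alkbh3-/- and 358 RPM in wild type (log2 fold change -0.72, SE 0.57, edgeR adjusted p = 0.46). Set against the median isoacceptor, these values are -0.38 for Gln-TTG and -0.47 for Gln-CTG. Of the 46 isoacceptors tested, 17.4% were called lower by the same rule, and 52.2% had both Alkbh3-/- libraries below wild type. The difference between the changes of the 2 isoacceptors was not tested, and the larger change has the larger SE. The spread was pooled over isoacceptors, so these SEs do not measure how far libraries A and B differed for either one. Gln-TTG passed in 4 of 8 settings tried, with edgeR or DESeq2 adjusted p from 0.0066 to 0.58, and Gln-CTG in 0 of 8, with 0.12 to 0.50. DESeq2 gave Gln-TTG a log2 fold change of -0.33 (adjusted p = 0.58).

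Gln-CTG supplied most glutamine reads in every library, and its share was nearly the same in both genotypes. It made up 87.47% of glutamine reads in library A and 87.49% in library B, against 88.1% in wild type. The exact Clopper-Pearson 95% intervals were 86.3 to 88.5%, 86.6 to 88.4% and 87.3 to 88.9% in that order, and cover counting error only. They overlap, so a difference in the share was not detectable at this depth. The genes of both isoacceptors are 72 nt long apart from Gln-CTG-7-1, at 74 nt. The reads are of gel-selected fragments, so equal gene length does not show that both isoacceptors were captured equally well. This was not tested, so the share is one of reads and may not be one of tRNA molecules. Gln-CTG ranked 14th and 12th by RPM in libraries A and B, against 11th in wild type, among 56 isoacceptors. Gln-TTG ranked 30th in libraries A and B, against 26th in wild type.

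The 2 other isoacceptors with the same wobble chemistry did not pass the test. Of the 3 tRNAs with a thiolated wobble uridine, Gln-TTG fell, 1 of 3, beside 17.4% called lower among all isoacceptors tested, and the median log2 fold change was -0.36, beside -0.26 for all tested. Glu-TTC, which decodes glutamate, had 2428 and 2919 RPM in libraries A and B, against 1745 RPM in wild type (log2 fold change 0.64, SE 0.68, edgeR adjusted p = 0.61). Lys-TTT, which decodes lysine, had 309 and 352 RPM, against 429 RPM in wild type (log2 fold change -0.36, SE 0.64, edgeR adjusted p = 0.76). The glutamine pair had 6.98 Gln-CTG reads per Gln-TTG read in library A and 6.99 in library B, against 7.43 in wild type. For glutamate the same kind of ratio, Glu-CTC over Glu-TTC, was 22.5 and 19.7, against 17.7 in wild type, and for lysine, Lys-CTT over Lys-TTT, it was 22.7 and 16.1, against 16.3. The glutamine ratio thus lay below wild type in both Alkbh3-/- libraries, the glutamate ratio above it, and the lysine ratio on both sides. The glutamine ratio rests on the same counts as the Gln-CTG share, whose intervals overlapped, so its difference was not detectable at this depth. None of these ratios was tested. Glu-CTC itself was called higher, with 54516.5 and 57504.3 RPM in libraries A and B, against 30918.3 RPM in wild type. Its log2 fold change was 0.86 (SE 0.13, edgeR adjusted p = 1.0e-06). Lys-CTT was not called (log2 fold change -0.16, SE 0.43, edgeR adjusted p = 0.79).

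The isoacceptors whose changes lay nearest to those of the glutamine tRNAs were named by the distance between pairs of log2 ratios (library A over wild type and library B over wild type), among 44 isoacceptors. Gln-CTG, at -0.80 and -0.67, was nearest to Trp-CCA, at -0.84 and -0.68, then to Gln-TTG and Gly-CCC. Gln-TTG, at -0.71 and -0.58, was nearest to Gly-CCC, at -0.64 and -0.59, then to Arg-CCG and Gln-CTG. These pairs share the wild type library and its depth, and rest on 3 libraries.

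The gene copies lie on 7 chromosomes, with 7 copies on chromosome 13 and 5 on chromosome 3. Of the 19, 16 have the same chromosome, start and end in mm10 as a tRNA of RefSeq GRCm38.p6. By the GENCODE M21 annotation 17 lie between genes. Gln-TTG-5-1 (chromosome 11, 86262168 to 86262239, plus strand) lies within Brip1os outside its exons. Gln-TTG-1-1 (chromosome 11, 95859172 to 95859243, minus strand) lies within 4833417C18Rik on the other strand, and 3 nt of it overlap an exon of Gm11527 on the same strand. In tRNA gene names the first number marks a mature sequence and the second a locus, so copies such as Gln-CTG-2-1 to Gln-CTG-2-4 make the same tRNA and reads from them cannot be told apart by sequence.

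Most Gln-CTG reads were assigned about evenly to 7 copies, the 4 Gln-CTG-2 and 3 Gln-CTG-3 loci. How shared reads were divided among copies is not stated, so the even spread may not be one of the loci. Gln-CTG-2-3 (chromosome 13, 21172351 to 21172422, plus strand) had 398 reads in library A and 581 in library B, against 680 in wild type. Gln-CTG-2-2 (chromosome 11, 69124607 to 69124678, minus strand) had 367 and 571, against 638. Gln-CTG-2-1 (chromosome 9, 64738046 to 64738117, plus strand) had 362 and 554, against 653. Per 1000000 reads, all 3 lay lower in both Alkbh3-/- libraries. These 3 copies with the highest mean RPM held 12.6%, 11.8% and 12.1% of the wild type Gln-CTG reads, and their log2 fold changes were -0.75 (SE 0.42), -0.72 (SE 0.41) and -0.79 (SE 0.36). None of the 12 Gln-CTG copies passed (edgeR). Gln-CTG-5-1, which was chosen after its values were seen, had the log2 fold change nearest to 0 among the Gln-CTG copies, -0.13 (SE 0.20), from 3.24 and 3.07 RPM, against 3.44 RPM. It was 0.13 with the tRNA gene counts as library sizes and 0.070 with DESeq2.

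Gln-TTG reads were assigned mainly to 4 loci. Gln-TTG-1-1 had 161 and 233 reads in libraries A and B, against 250 in wild type (log2 fold change -0.62, SE 0.23, edgeR adjusted p = 0.28). Gln-TTG-2-1 (chromosome 13, 21268469 to 21268540, minus strand) had 127 and 173 reads, against 188 (log2 fold change -0.60, SE 0.19, edgeR adjusted p = 0.18). The next 2 are neighbours on chromosome 13 with, by their names, the same mature sequence, Gln-TTG-3-1 at 23519050 to 23519121 and Gln-TTG-3-2 at 23519613 to 23519684, both on the plus strand. Gln-TTG-3-1 fell to 73 and 105 reads in libraries A and B, against 121 in wild type, a mean of 4.85 ± 0.158 RPM (SD, n = 2) in Alkbh3-/- and 8.01 RPM in wild type (log2 fold change -0.72, SE 0.16, edgeR adjusted p = 0.038). Gln-TTG-3-2 had 60 and 121 reads, against 128 (log2 fold change -0.78, SE 0.31, edgeR adjusted p = 0.28). The split of reads between these twin loci is uncertain, and the call on Gln-TTG-3-1 was lost in each of the other 5 settings tried (adjusted p up to 0.61).

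**Figure D1:**
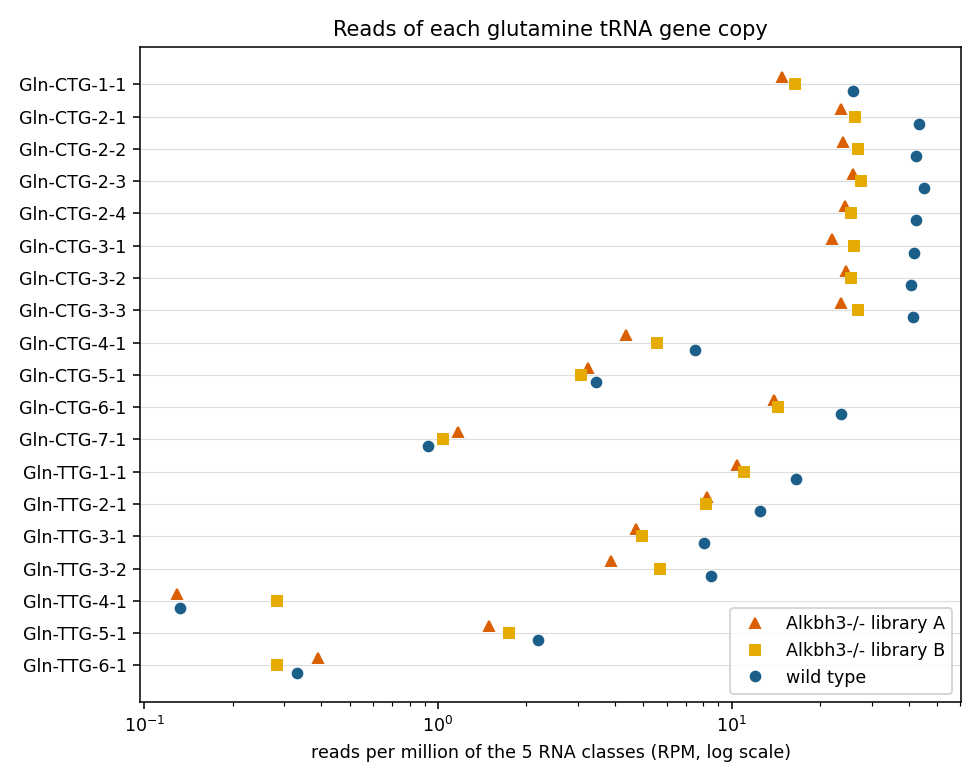
RPM (log scale) of each glutamine tRNA gene copy in Alkbh3-/- libraries A and B and in the wild type library, 1 point per library. In 16 of 19 copies both Alkbh3-/- points lie left of the wild type point, and Gln-CTG-7-1, Gln-TTG-4-1 and Gln-TTG-6-1 are the exceptions.

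Over all 19 copies, 1 was called lower and 0 higher, beside 7.36% called lower and 2.45% called higher among all 367 copies tested, so this count is no larger than the background. Both Alkbh3-/- libraries lay below wild type in 16 of 19 copies, beside 47.4% of all copies tested, and many of the 16 share reads. Both lay above it in 1, beside 22.1% of all. The median log2 fold change was -0.70 for the glutamine copies and -0.15 for all copies tested. The exceptions were Gln-CTG-7-1, with 18 and 22 reads against 14 in wild type, Gln-TTG-4-1, with 2 and 6 against 2, and Gln-TTG-6-1, with 6 and 6 against 5. All 3 are too thinly read for a firm direction.

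The fragment sheets give, for each gene, the reads at each length in a first and a second end class, terms whose meaning the labels and headers leave unstated. They hold more glutamine reads than the gene counts, 5014 and 7394 Gln-CTG reads in libraries A and B, against 7994 in wild type, and 712 and 1092 Gln-TTG reads, against 1098. RPM of fragments and of genes therefore cannot be set against each other. Glutamine fragments had several separate lengths rather than a single peak. In Gln-CTG the main lengths were 30, 41, 50 and 55 nt, and in Gln-TTG 30, 41, 31 and 34 nt.

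**Figure D2:**
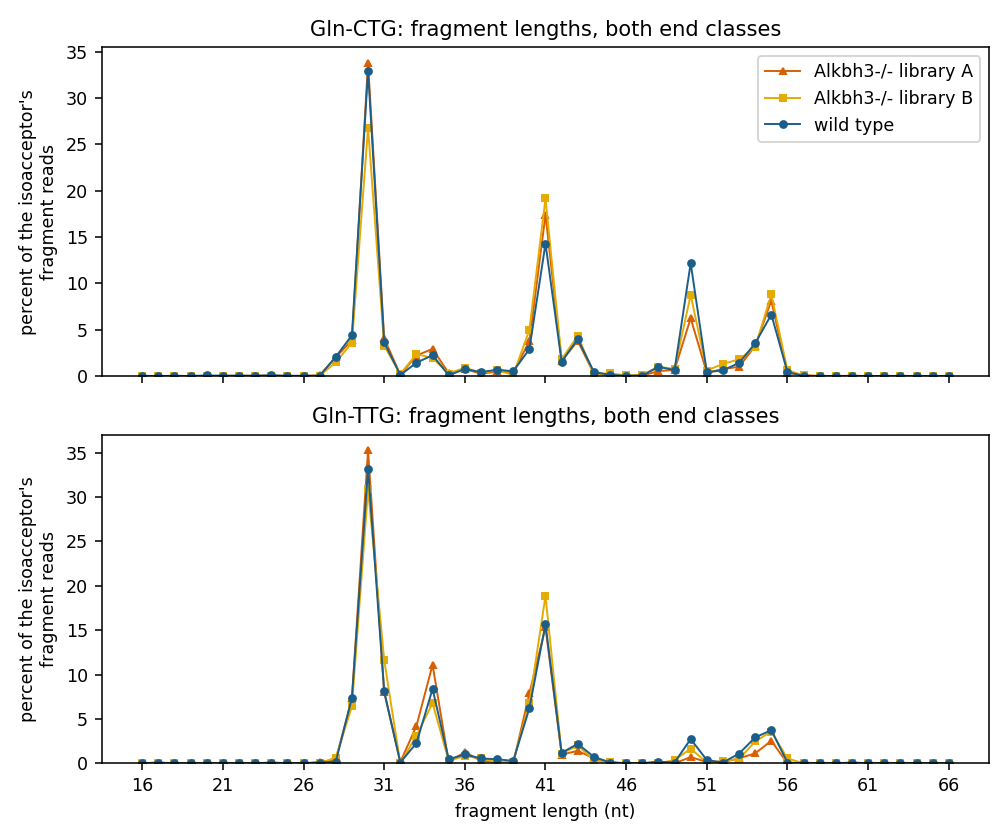
Share of each isoacceptor's fragment reads (percent) at each length (nt), both end classes together, in Alkbh3-/- libraries A and B and in wild type. Both isoacceptors peak at 30 and 41 nt in every library, and the 50-nt peak of Gln-CTG is highest in wild type, at 12.2%.

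The main fragment of both isoacceptors was 30 nt long. It made up 33.8% of Gln-CTG reads in library A and 26.8% in library B, against 32.96% in wild type. In Gln-TTG it made up 35.3% and 30.9%, against 33.2%. The 2 Alkbh3-/- libraries lay on both sides of wild type for each isoacceptor, so the share showed no difference beyond the spread between them. The median of the other isoacceptors, among 40 that had at least 100 fragment reads per library, was 2.70% and 2.95% in libraries A and B, against 2.54% in wild type. In the pooled reads of all other tRNAs the 30-nt share was 20.3% and 21.8%, against 20.1% in wild type. By this share Gln-TTG ranked 2nd among the 40 in every library, and Gln-CTG 3rd in library A, 5th in library B and 3rd in wild type. The 30-nt share was thus high for an isoacceptor, but a large one is not particular to the glutamine tRNAs.

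A 41-nt fragment was the next most frequent in both isoacceptors, and it was rare in the other tRNAs as a whole. It made up 17.4% of Gln-CTG reads in library A and 19.2% in library B, against 14.3% in wild type. The exact 95% intervals were 16.4 to 18.5% and 18.3 to 20.1%, against 13.5 to 15.1% in wild type, for counting error only. In Gln-TTG it made up 15.3% and 18.9%, against 15.7%. All other tRNAs together had 0.0313% and 0.0422% of their reads at 41 nt, against 0.0306% in wild type. Among the 40 isoacceptors the glutamine tRNAs held 2 of the top 3 places by this share in each library. The Gln-CTG share was higher in both Alkbh3-/- libraries by more than the gap between them, and the Gln-TTG share was not. In the 7 Gln-CTG-2 and Gln-CTG-3 copies the share was 15.2 to 19.3% in library A and 16.4 to 19.6% in library B, against 12 to 14.9% in wild type, and these copies share mature sequences, so they are not separate observations. Gln-CTG-1-1 had 22.7% and 28.05%, against 20.5%, and Gln-CTG-6-1 had 16.8% and 25.8%, against 18.2%, so that its Alkbh3-/- libraries lay on both sides of wild type. Over isoacceptors, the share was higher in both libraries in 6 of the 40 isoacceptors and lower in both in 13.

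Per read of 30 nt, Gln-CTG had 0.516 reads of 41 nt in library A and 0.715 in library B, against 0.434 in wild type. Per read of 30 nt, Gln-TTG had 0.434 and 0.611, against 0.473. The ratio was thus higher in both Alkbh3-/- libraries for Gln-CTG and on both sides of wild type for Gln-TTG. No test was made on shares or ratios, since with 1 library against 2 the smallest exact permutation p is 0.33.

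The 50-nt fragment had the lowest level relative to wild type among the 6 main Gln-CTG fragments. It made up 6.24% of Gln-CTG reads in library A and 8.74% in library B, against 12.2% in wild type. In Gln-TTG it made up 0.702% and 1.65%, against 2.73%, from 5, 18 and 30 reads. In all other tRNAs together the 50-nt share was higher, with 1.62% and 1.47%, against 0.482% in wild type. Taken one by one, 17 of the 40 isoacceptors had a lower 50-nt share in both Alkbh3-/- libraries and 11 a higher one in both. The excised gel range ended at 50 nt, so fragments of this length and above lie at or past its edge.

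Fragments above 50 nt did not follow the 50-nt one in Gln-CTG. They made up 14.0% and 16.4% of its reads in libraries A and B, against 13.1% in wild type, with 55 nt the main length at 8.14% and 8.82%, against 6.64%. In Gln-TTG they made up 4.49% and 7.42%, against 8.38%. So above 50 nt the Gln-CTG share lay above wild type in both Alkbh3-/- libraries and the Gln-TTG share below it in both. The exact intervals for counting error overlapped wild type in library A for Gln-CTG (13.1 to 15.0%, against 12.4 to 13.9%). For Gln-TTG they overlapped it in library B (5.93 to 9.14%, against 6.81 to 10.2%). They did not overlap it in library B for Gln-CTG or in library A for Gln-TTG. All other tRNAs together had 0.204% and 0.223% of their reads above 50 nt, against 0.131%, so higher in both libraries too.

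Of 115 combinations of isoacceptor, length and end class seen in the glutamine tRNAs, 34 had 10 or more reads in each library and were tested among 572 fragments of all tRNAs. None passed an edgeR adjusted p of 0.05, beside 2.27% of all fragments tested, 1.05% lower and 1.22% higher. At an unadjusted edgeR p of 0.05, 1 of the 34 passed, beside 10.1% of all. TMM scaling and DESeq2 each called 1, and the share of all fragments called in those settings was not counted. In each case it was the 50-nt Gln-CTG fragment of the first end class. This fragment had 20.1 RPM in library A and 30.4 RPM in library B, against 64.5 RPM in wild type. It averaged 25.3 ± 7.29 RPM (SD, n = 2) in Alkbh3-/- and 64.5 RPM in wild type (log2 fold change -1.34, SE 0.55, edgeR adjusted p = 0.28). It passed in 2 of 6 settings, TMM scaling (-1.37, edgeR adjusted p = 0.0053) and DESeq2 (-1.30, adjusted p = 0.028).

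The other main Gln-CTG fragments, all of the first end class, had smaller differences. The 30-nt fragment had 109 and 93.2 RPM in libraries A and B, against 174 RPM in wild type, with log2 fold change -0.78 (SE 0.53). At 29 nt it was -0.88 (SE 0.56) and at 43 nt -0.61 (SE 0.56). The 41-nt fragment had 56.7 and 66.9 RPM, against 75.7 RPM, a log2 fold change of -0.29 (SE 0.55). The 55-nt fragment had 26.5 and 30.8 RPM, against 35.1 RPM, also -0.29 (SE 0.56). With the fragment sheet totals as library sizes, which moved the median of all fragments from -0.03 to 0.25, both were -0.01. The 41-nt and 55-nt levels lay nearest to wild type among these 6, while their RPM still lay below it in both libraries.

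In Gln-TTG the 30-nt fragment of the first end class had 15.8 and 15.5 RPM in libraries A and B, against 23.2 RPM in wild type, a log2 fold change of -0.57 (SE 0.56). The 41-nt fragment had 7.07 and 9.68 RPM, against 11.4 RPM, a log2 fold change of -0.42 (SE 0.58). The other main lengths, 34, 31, 29 and 40 nt, had log2 fold changes between -0.68 at 29 nt and -0.30 at 31 nt, with SEs of 0.64 to 0.67. Of all 34 glutamine fragments tested, 31 had a negative and 3 a positive log2 fold change. The median was -0.58, beside -0.03 for all fragments tested. In 28 of the 34 both Alkbh3-/- libraries lay below wild type, beside 42.0% of all fragments tested, and in 1 both lay above, beside 32.5%. The 34 are pieces of the same 2 isoacceptors, both lower in RPM, so they are not separate observations.

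**Figure D3:**
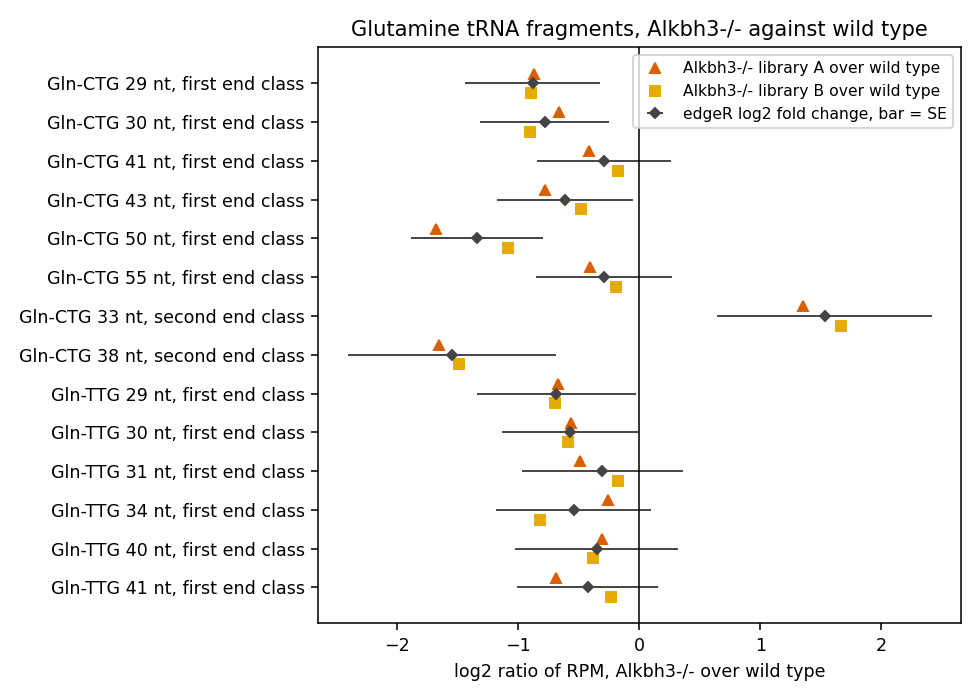
Log2 ratio of RPM, Alkbh3-/- over wild type, for the 6 main fragments of each isoacceptor and for 2 second-class Gln-CTG fragments. Triangles and squares are libraries A and B, and diamonds with bars are the edgeR log2 fold change ± SE. The second-class fragment of 33 nt lies right of 0 in both libraries and all others shown lie left of it.

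The second end class held few glutamine reads, and 2 of its lengths differed in opposite directions in Gln-CTG, neither past the threshold. The class made up 3.07% of Gln-CTG reads in library A and 3.35% in library B, against 2.13% in wild type. In Gln-TTG it made up 3.37% and 6.41%, against 4.28%. The median of the other isoacceptors among the 40 was 6.28% and 5.39%, against 8.06%. All other tRNAs together had 0.411% and 0.415%, against 0.374%. The share was higher in both Alkbh3-/- libraries in 10 of the 40 isoacceptors and lower in both in 17. The 33-nt second-class Gln-CTG fragment had 47 reads in library A and 80 in library B, against 18 in wild type (log2 fold change 1.53, SE 0.89, edgeR adjusted p = 0.56). The 38-nt one had 13 and 20 reads, against 40 in wild type (log2 fold change -1.55, SE 0.86, edgeR adjusted p = 0.52). The choice of these 2 was made once their values were known.

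The Gln-CTG-2 copies gave reads of both lengths. Second-class reads of 38 and 39 nt came almost wholly from the Gln-CTG-2 copies, which gave 19 of 20 such reads in library A and 20 of 25 for library B, against 61 of 62 in wild type. Of those of 33 nt, Gln-CTG-2 copies gave 22 of 47 and 43 of 80, against 5 of 18 in wild type. Gln-CTG-3 copies gave 17 and 23, against 6. The remainder came from Gln-CTG-4-1, with 2 and 8, against 2, Gln-CTG-5-1, with 3 and 5, against 2, and Gln-CTG-7-1, with 3 and 1, against 3. In Gln-TTG the second-class fragment of 31 nt had 6 reads in library A and 40 in library B, against 19 in wild type, so the 2 Alkbh3-/- libraries lay on both sides of wild type.

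The reads assigned to the copies differed in length. How reads that match several copies were divided is not stated, so the shares per copy may not be those of the loci. This was not tested. In the 7 Gln-CTG-2 and Gln-CTG-3 copies, fragments of 50 nt or more made up 20.1 to 23.2% of reads in library A and 25.2 to 31.6% in library B, against 27.4 to 30.2% in wild type. Gln-CTG-1-1 had 1.01% and 2.50%, against 1.06%, and Gln-CTG-6-1 had 0 of 369 and 1 of 531 reads, against 0 of 603 in wild type, where the exact 95% upper bounds were 0.995% in library A and 0.610% in wild type. Both had 369 or more assigned fragment reads in each library, and 30-nt fragments made up 46.3% and 35.4% of Gln-CTG-1-1 reads, against 48.0%. Gln-CTG-4-1 and Gln-CTG-5-1 had larger shares of 50 nt or more than the copies above. These were 47.7% and 44.8%, against 51.8%, for Gln-CTG-4-1, and 52.9% and 52.6%, against 65.1%, for Gln-CTG-5-1. The 30-nt fragment was the main one in the Gln-CTG-1, Gln-CTG-2, Gln-CTG-3 and Gln-CTG-6 copies. In Gln-CTG-5-1 it made up 8.05% and 6.14% of reads, against 7.23%.

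The reads assigned to Gln-TTG copies differed in length as well, with the same limit. Gln-TTG-2-1 had 0.463% and 2.07% of its reads at 50 nt or more in libraries A and B, against 0.645% in wild type. Gln-TTG-3-1 had 9.82% and 15.2%, against 23.5%, and Gln-TTG-3-2 had 14.9% and 16.9%, against 24.5%. In these twin loci the share lay below wild type in both Alkbh3-/- libraries. The 34-nt fragment made up 18.8% and 12.7% of Gln-TTG-3-1 reads, against 15.9%, and 8.33% and 3.79% of Gln-TTG-2-1 reads, against 5.16%. In Gln-TTG-5-1 the 41-nt fragment was the main one, at 40.5% in library A and 45.6% in library B, against 54.4% in wild type.

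**Figure D4:**
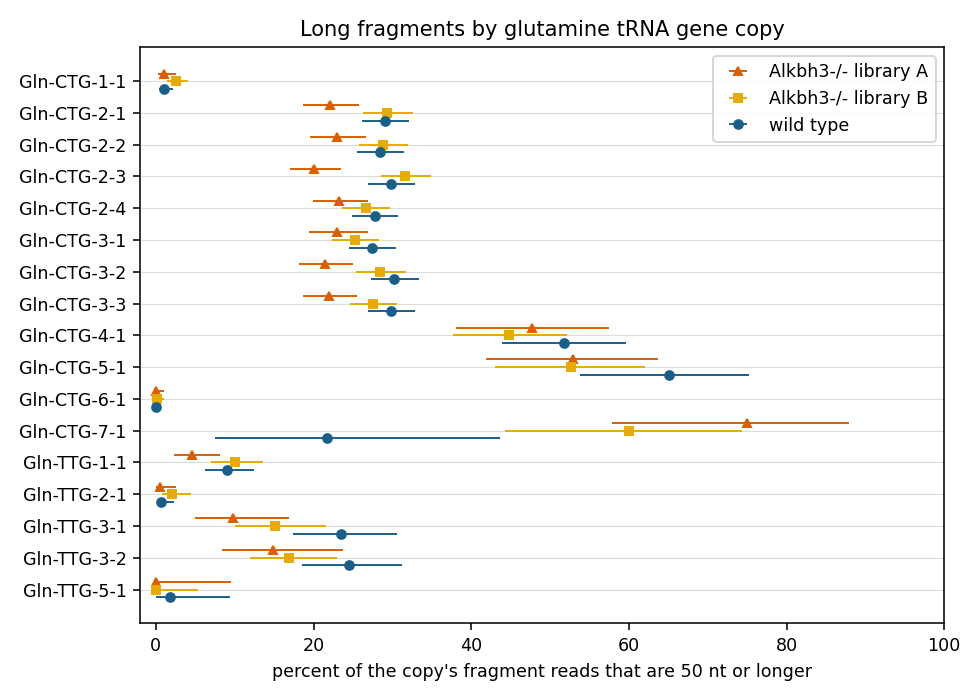
Share of fragment reads that are 50 nt or longer (percent) for each glutamine copy that had at least 20 fragment reads per library, with exact Clopper-Pearson 95% intervals for counting error. Gln-CTG-1-1, Gln-CTG-6-1 and Gln-TTG-2-1 lie near 0 in all 3 libraries, and Gln-CTG-4-1 and Gln-CTG-5-1 lie above 40% in all 3.

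Gln-CTG-7-1 (chromosome 6, 89763852 to 89763925, plus strand) stood apart from the other glutamine copies. The second end class held 36 of its 36 fragment reads for library A and 45 of 45 for library B, against 22 of 23 for wild type. It held all second-class Gln-CTG reads of 49 to 52 nt in libraries A and B, 29 and 38, against 10 of 11 in wild type. Reads of 50 nt or more made up 75.0% of its reads in library A and 60.0% in library B, against 21.7% in wild type. The exact 95% intervals were 57.8 to 87.9% in library A and 44.3 to 74.3% in library B, against 7.46 to 43.7% in wild type, for counting error only. This share was not tested over libraries.

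By overlap of length profiles (the sum of the smaller share at each length and end class, averaged over the 3 libraries), the isoacceptor most like Gln-CTG among the 40 was Gln-TTG, at 76.0%. Next came Ala-CGC, at 38.5%, and Thr-TGT, at 38.3%. For Gln-TTG the next were His-GTG, at 44.5%, and Thr-TGT, at 42.3%.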

How the data were processed

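Small RNA of 15 to 50 nt was excised from a 15% gel and sequenced from epididymis, per the labels' protocols. The authors deposited raw read counts of 5 RNA classes and of tRNA genes, and 1 sheet per library with reads by fragment length in 2 end classes. Per the submitters' processing notes, cutadapt was used and the build is mm10. For the aligner, the counter and multiply matching reads, details are not stated. In the sheets, 6 columns of sums were not used. Library size was the sum of the classes.

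Counts were summed per isoacceptor. Isoacceptors and gene copies with 10 or more reads over the 3 libraries, and fragments with 10 or more in each, were tested with edgeR 4.0.16 (glmQLFit, glmQLFTest) in R 4.3.3 over the whole table, with Benjamini-Hochberg adjustment, a threshold of 0.05 and 1 residual degree of freedom. Only libraries A and B inform the spread, and wild type is taken to vary as they do. SE is the log2 fold change over the square root of F. The tests were also run on simulated counts, drawn with a common spread in which wild type varied as libraries A and B do. That run could not check this assumption. Over isoacceptors, chi-square over its degrees of freedom was 255 between libraries A and B, far above sampling noise, so they were counted as 2 libraries. Over the 19 glutamine copies alone it was 0.634, so the split of reads among those copies did not differ between A and B beyond sampling noise. How reads were divided among copies with the same mature sequence is not stated. This value therefore cannot show how far A and B agree.

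The members and lists were chosen with earlier results of these data known. Named were both isoacceptors, the 3 copies and 6 fragments with the highest mean RPM of each, and any past the threshold. Likeness was ranked among isoacceptors with a mean of 50 or more reads for changes, and 100 or more fragment reads in each library for lengths. Alternatives were TMM scaling, other library sizes, DESeq2 1.42.0, other filters, the fragment sheets as source, and each Alkbh3-/- library left out. edgeR's older quasi-likelihood method was added after seeing the data.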

Additional observations from a re-analysis of the deposited data

How the results depend on the processing

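The log2 fold change of Gln-TTG kept its sign but did not pass with the tRNA gene counts as library sizes (-0.37), with DESeq2 (-0.33), with counts from the fragment sheets (-0.56) and with edgeR's older quasi-likelihood method (-0.65). It passed with TMM scaling, without a filter and with a minimum of 50 reads. Gln-CTG stayed negative, from -0.74 to -0.41, and did not pass in any of these. With 1 Alkbh3-/- library left out, a value with no test, Gln-CTG was -0.80 to -0.67 and Gln-TTG -0.71 to -0.58. The count of glutamine copies called lower was 1, and 0 with TMM scaling, the tRNA gene counts as library sizes, DESeq2, no filter and the older method. The count of glutamine fragments called lower was 0, and 1 with TMM scaling and with DESeq2, where the share of all fragments called was not counted. The Gln-CTG share of glutamine reads, Alkbh3-/- minus wild type, differed by -0.66 percentage points, and by -0.57 points in the fragment sheets. The second-class share of Gln-CTG reads was higher by 1.09 points, and by 0.78 points without reads of 50 nt and longer. With 1 Alkbh3-/- library left out, differences in share took either sign for Gln-CTG at 30 nt (-6.17 to 0.82 points) and for Gln-TTG at 30 nt (-2.29 to 2.10), at 41 nt (-0.36 to 3.20) and in the second end class (-0.91 to 2.13). The cause of these shifts was not tested. The log2 fold change of Gln-CTG-5-1 (-0.13) was 0.13 with the tRNA gene counts as library sizes and 0.070 with DESeq2. That of Gln-TTG-6-1 (-0.01) was 0.10 with TMM scaling, 0.24 with the tRNA gene counts as library sizes, and -0.22 to 0.23 with 1 Alkbh3-/- library left out, and that of Gln-TTG-4-1 was -0.03 to 1.06 with 1 left out. The other 16 copies and the named fragments kept their sign. No paired analysis was possible because wild type has 1 library and its label carries no replicate number. Depth limits the thin copies and the Gln-TTG fragments most.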
